A study of Mus musculus with 20 samples.

Results

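Ribosome biogenesis genes encode the proteins that transcribe, modify, cut and assemble ribosomal RNA in the nucleolus. A set of 36 such genes was chosen by name, from their known roles, with earlier results of these data known. They were looked up by symbol in the deposited gene table of mouse heart ventricle. Of the 36, 35 had a row among the 21705 genes of the table and Noc2l was not analysed here. All 35 passed the filter on low values that left 13548 genes for testing.

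The heart RNA came from male mice of strain background C57Bl/J6, of genotype Acsl1H-/- (called knockout here) or littermate Acsl1flox/flox (control), 5 libraries in each of 4 groups. Acsl1 encodes long-chain acyl-CoA synthetase 1, which activates fatty acids for oxidation and is the main such enzyme of heart muscle. The control vehicle and knockout vehicle groups received daily vehicle, and the control rapamycin and knockout rapamycin groups received rapamycin at 1 mg/kg, each for 2 weeks by intraperitoneal injection. Rapamycin inhibits mTOR complex 1, a kinase complex that couples nutrients and growth signals to ribosome production. Mice of both genotypes, so all 4 groups, were given tamoxifen at 75 mg/kg on 4 days at an age of 6 to 8 weeks, and ventricles were taken 2 weeks later. The labels do not name the Cre driver or say whether the controls carried it, so an effect of Cre itself and loss of Acsl1 cannot be told apart. The submitters describe the 5 libraries of a group as biological replicates; whether each is a single mouse is not spelled out.

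A ribosome starts as a long precursor RNA made by RNA polymerase I, on which small nucleolar ribonucleoproteins (snoRNPs), the small subunit processome and large subunit assembly factors act in turn. Growing heart muscle makes more ribosomes, and mTOR complex 1 and the transcription factor Myc are known regulators of these steps. mTOR complex 1 acts on RNA polymerase I largely through the initiation factor Rrn3 and on ribosomal protein mRNAs at translation, so mRNA levels show only part of the pathway.

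Values are RSEM gene estimates scaled by the authors to a common upper quartile, called normalised values below, and changes are on the log2(value + 1) scale. Depth implied by the steps between low values was 11.5 to 21.1 M reads per library. Acsl1 stood at 6373, 13112, 7659, 9844 and 13431 in control vehicle libraries 1 to 5 and at 996, 1402, 1467, 1682 and 740.5 in knockout vehicle libraries 1 to 5. Acsl1 under rapamycin stood at 12198, 10518, 12121, 16661 and 11698 in controls 1 to 5 and at 1052, 1949.8, 948, 631 and 1539 in knockouts 1 to 5. Acsl1 fell to 12.5% of control under vehicle and to 9.68% under rapamycin, with no overlap between genotypes (exact permutation test of 5 against 5 libraries, two-sided, p = 0.00794 each). The libraries control vehicle 1 and control vehicle 3 stood apart from the other 18. Their score of long minus short transcripts was -0.98 and -1.07, against -0.42 to 0.53 elsewhere, so long transcripts were low in them relative to short ones. The summed level of the 8 cardiomyocyte markers was at most 1.24 times as high in one library as in another. Under vehicle, 3 of the 8 were higher in the knockout (19.8% of all genes) and 2 lower (12.1%) at an unadjusted p under 0.05. Their fitted changes ran from -0.63 to 0.73, and 0 were called. No listed marker of any cell type was at 0 in every library. Summed fibroblast markers ran from 60304 to 77469 in control vehicle and from 84243 to 144696 in knockout vehicle libraries. Of those 8 markers, 6 were higher at an unadjusted p under 0.05 (19.8% of all genes). Of all genes, 0.244% were called in either direction under vehicle, and 0 of these 8 were. Summed erythroid markers ran from 34796 to 84344 and from 7406 to 26731 (1 of 4 called lower), and summed atrial markers from 1358 to 6056 and from 4141 to 63604 (0 of 4 called). Averaged over drug, 3 of the 8 fibroblast markers were called higher in the knockout and 1 of the 4 erythroid markers was called lower. Of all genes, 0.443% were called there in either direction. In that comparison 5 of 8 proliferation markers were lower at an unadjusted p under 0.05 (8.73% of all genes), and 0 were called. The part of these marker shifts in the results below was not tested. In RNA from whole ventricle, fewer cells of a type and less RNA per cell cannot be told apart.

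Under vehicle, loss of Acsl1 left 35 of 35 ribosome biogenesis genes short of an adjusted p of 0.05 in limma, where 0.244% of all genes tested passed in either direction. At an unadjusted p under 0.05, 11 of the 35 were higher in the knockout (19.8% of all genes) and 6 were lower (12.1% of all genes). With quantile normalisation these counts were 10 (13.7% of all genes) and 6 (16.6%). The median change over the 35 was 0.11 on the log2 scale, beside 0.07 over all genes tested, and single genes ran from -0.67 for Polr1e to 1.19 for Ncl. Within the 4 pools given in the labels, each of which held every group, the median over the 35 was 0.09, 0.13, 0.17 and 0.03 in pools 1 to 4. Control vehicle 1 was in pool 1 with control vehicle 4, and control vehicle 3 was the only control vehicle library of pool 3. With control vehicle 1 and 3 left out, 2 genes were higher (4.28% of all genes) and 1 lower (2.47%) at an unadjusted p under 0.05, and 30 of the 35 changes were smaller. The sign of 5 turned, those of Polr1a, Mybbp1a, Nhp2, Bop1 and Nip7. The count called turned on single libraries. Without control vehicle 5, 15 of the 35 passed the adjusted threshold together with 3089 of all genes, and without knockout vehicle 5, 12 passed together with 2565. The score of long minus short transcripts was 0.21 in control vehicle 5, the highest of its group. It was -0.42 in knockout vehicle 5, the lowest of its group. Leaving out either library therefore widens the difference in mean score between the vehicle groups. The part of this in the counts was not tested. With both control vehicle 1 and 3 left out, 0 passed.

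Rapamycin in the controls gave no adjusted call, among the 35 or among all genes tested (0% called by limma). At an unadjusted p under 0.05, 11 of the 35 were higher under rapamycin (10.6% of all genes) and 0 were lower (4.32% of all genes). With quantile normalisation these counts were 5 higher (5.51% of all genes) and 1 lower (7.62%). In the 18 libraries other than control vehicle 1 and 3, they were 2 higher (2.17% of all genes) and 0 lower (1.33%), and the sign of 14 of the 35 turned. This comparison shares the control vehicle libraries with the one above, so the likeness of the 2 sets of changes is no independent observation. The median change was 0.08, beside 0.07 over all genes. Within pools 1 to 4 it was 0.20, 0.08, 0.20 and 0.02, and pools 1 and 3, both at 0.20, hold control vehicle 1 and 3. The 11 genes were Ncl (1.01), Nop58 (0.69), Ddx21 (0.69), Dkc1 (0.60), Nolc1 (0.59), Noc3l (0.53), Gar1 (0.48), Ubtf (0.45), Utp18 (0.41), Npm1 (0.25) and Fbl (0.23). Without control vehicle 1 and 3 their changes were 0.21 (Ncl), 0.30 (Nop58), 0.09 (Ddx21), 0.15 (Dkc1), 0.19 (Nolc1), 0.26 (Noc3l), 0.08 (Gar1), 0.13 (Ubtf), 0.46 (Utp18), 0.21 (Npm1) and 0.24 (Fbl). None of them is called here, and their adjusted p ran from 0.328 to 0.33 in limma.

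Under rapamycin, knockout and control hearts were not told apart by any of the 35 genes. In limma 0 passed the adjusted test (0.0221% of all genes did), and at an unadjusted p under 0.05, 0 were higher (1.25% of all genes) and 0 lower (1.72%). Fitted changes ran from -0.21 to 0.17 with a median of -0.02. Within the knockout, rapamycin likewise gave 0 adjusted calls (0.00738% of all genes) and 0 higher and 0 lower at an unadjusted p under 0.05 (2.3% and 3.42% of all genes), with fitted changes from -0.27 to 0.27 and a median of -0.03. In the first of these comparisons the 95% interval of 25 of the 35 genes lay within a 1.5-fold change either way, and in the second that of 27. The widest interval belonged to Ncl, from -0.80 to 0.93 in the first and from -0.98 to 0.75 in the second, so for Ncl a change of 1.5-fold in either direction lies within both intervals, and a p that misses the threshold does not show equal levels.

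**Figure D1:**
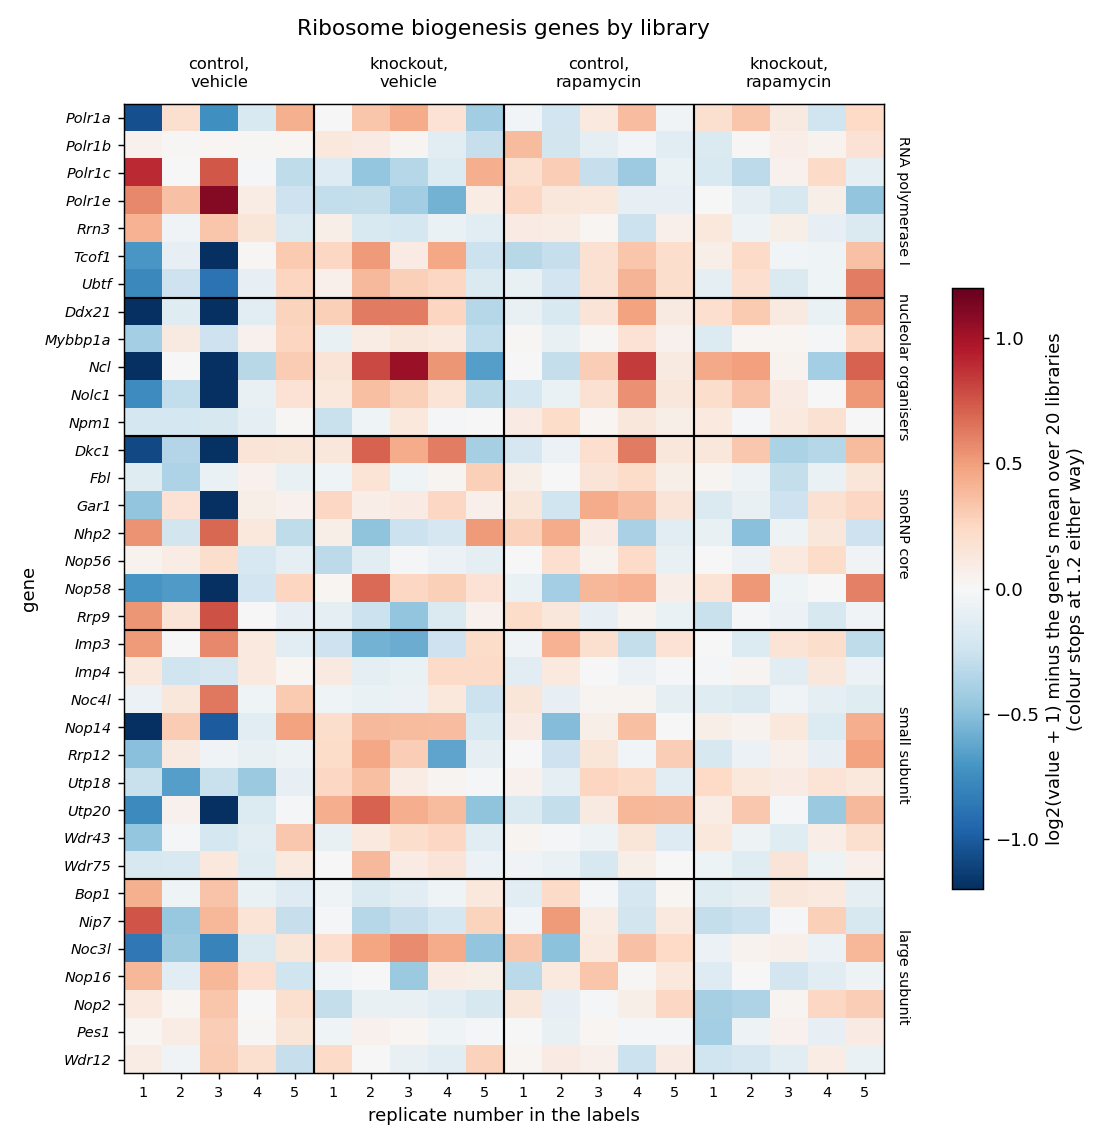
Each row is a ribosome biogenesis gene, grouped by role, and each column a library; colour gives log2(value + 1) minus the gene's mean over the 20 libraries, and stops at 1.2 either way. Control vehicle 1 and 3 together hold the lowest of the 20 values for 14 genes and the highest for 13.

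**Figure D2:**
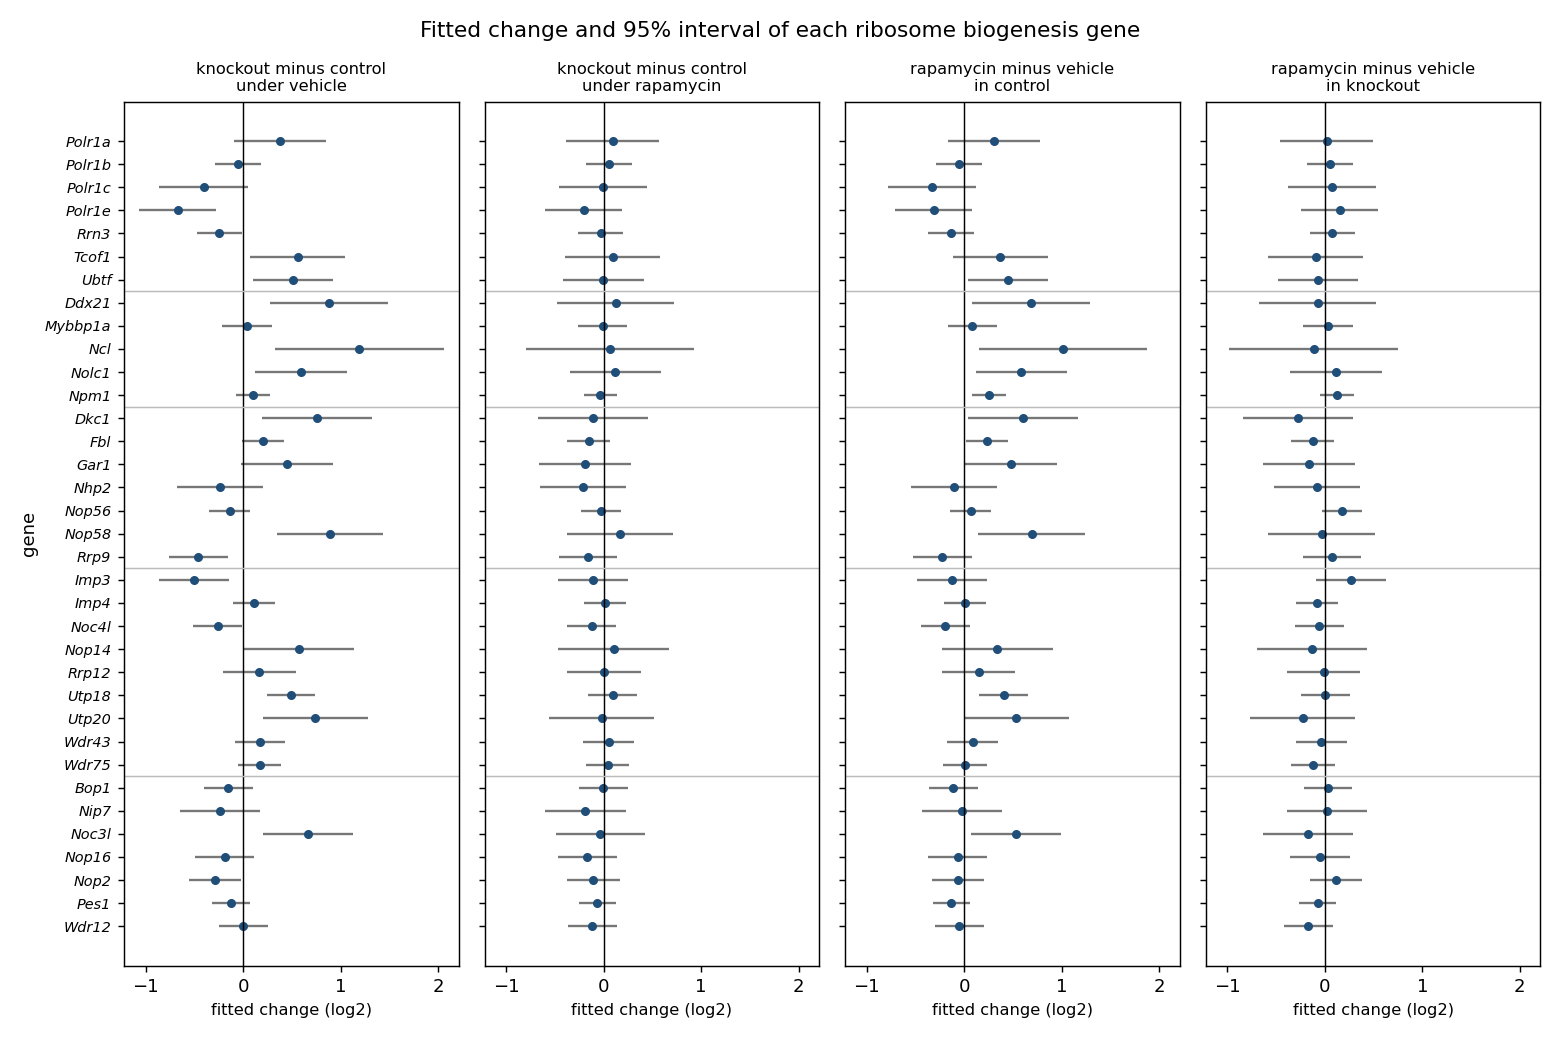
Points are fitted changes on the log2 scale and bars 95% intervals from limma, for the 35 genes in 4 comparisons on 1 common axis. Changes reach 1.19 under vehicle (Ncl, left panel) and stay between -0.27 and 0.27 in both comparisons made without the control vehicle group.

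RNA polymerase I and its factors gave changes in both directions in the knockout under vehicle, with a median of -0.06. At an unadjusted p under 0.05, 2 of 7 were higher (19.8% of all genes) and 2 of 7 lower (12.1% of all genes). With control vehicle 1 and 3 left out, the counts were 0 and 1 of 7 (4.28% and 2.47% of all genes), with a median of -0.04. Polr1a stood at 605, 1442, 754, 1109 and 1697 in control vehicle libraries 1 to 5 and at 1256, 1590.3, 1718, 1425 and 943 in knockout vehicle libraries 1 to 5. Polr1a under rapamycin stood at 1229.9, 1072, 1363, 1625 and 1226 in controls 1 to 5 and at 1435, 1591, 1357, 1067 and 1489 in knockouts 1 to 5. Polr1a, the largest subunit, was low in control vehicle 1 and 3 and overlapped between all groups, and its knockout change under vehicle was 0.38 (SE 0.23, 95% interval -0.10 to 0.85, adjusted p = 0.243), and -0.04 without control vehicle 1 and 3. Polr1b stood at 406, 396, 399, 395 and 399 in control vehicle libraries 1 to 5 and at 428, 418, 402, 357 and 324 in knockout vehicle libraries 1 to 5. Polr1b under rapamycin stood at 508, 335, 364, 382 and 356 in controls 1 to 5 and at 347, 395, 414, 404 and 443 in knockouts 1 to 5. Polr1b, the second largest subunit, had near-equal values in the 5 control vehicle libraries, and control rapamycin 1 was the highest library. Its change under vehicle was -0.06 (95% interval -0.29 to 0.18).

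Polr1e, a dissociable subunit of the polymerase, had the most negative fitted change in the knockout under vehicle among the 35 genes. Polr1e stood at 603, 516, 870.1, 431 and 339.6 in control vehicle libraries 1 to 5 and at 329, 330.4, 302, 272 and 429 in knockout vehicle libraries 1 to 5. Polr1e under rapamycin stood at 480.4, 444, 441, 376 and 377 in controls 1 to 5 and at 402, 373, 352, 424 and 289.8 in knockouts 1 to 5. Control vehicle 3, 1 and 2 were the 3 highest of the 20 libraries, control vehicle 4 lay just above the highest knockout vehicle library, and control vehicle 5 lay within the knockout range, so the genotypes overlapped. The change under vehicle was -0.67 (SE 0.19, 95% interval -1.07 to -0.28, adjusted p = 0.0873). In the 18 libraries other than control vehicle 1 and 3, it was -0.36 (95% interval -0.70 to -0.02, adjusted p = 0.714). Averaged over both drug groups it was -0.44 (SE 0.13, 95% interval -0.72 to -0.16, adjusted p = 0.156), and without control vehicle 5 alone this averaged value became -0.52 with an adjusted p of 0.0477. Polr1c, a subunit shared with RNA polymerase III, was also highest in control vehicle 1 and 3, and its fitted change was -0.41 (95% interval -0.86 to 0.05), and -0.04 without control vehicle 1 and 3.

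Rrn3, the initiation factor through which growth signals reach the polymerase, did not pass the adjusted test in any comparison over all 20 libraries. Rrn3 stood at 2569, 1868, 2419.9, 2124 and 1702 in control vehicle libraries 1 to 5 and at 2018, 1687, 1656, 1816 and 1754 in knockout vehicle libraries 1 to 5. Rrn3 under rapamycin stood at 2054, 2038, 1953, 1606 and 2000.0 in controls 1 to 5 and at 2094, 1835, 2010.3, 1789 and 1699 in knockouts 1 to 5. Control vehicle 1, 3 and 4 were the 3 highest libraries and lay above every knockout vehicle library, while control vehicle 2 and 5 lay among them. The change under vehicle was -0.24 (SE 0.11, 95% interval -0.48 to -0.01, adjusted p = 0.143), and -0.08 without control vehicle 1 and 3. The fitted rapamycin change was -0.14 in controls (95% interval -0.37 to 0.10) and 0.08 in knockouts (95% interval -0.16 to 0.31). Ubtf stood at 826, 1183, 763, 1311 and 1681 in control vehicle libraries 1 to 5 and at 1472, 1848, 1714, 1675 and 1246 in knockout vehicle libraries 1 to 5. Ubtf under rapamycin stood at 1325, 1197, 1599, 1870.3 and 1629.9 in controls 1 to 5 and at 1296, 1618, 1246, 1357 and 2151 in knockouts 1 to 5. Ubtf, the factor that binds the ribosomal DNA promoter and keeps its chromatin open, was lowest in control vehicle 3 and 1, and all groups overlapped. Its change was 0.51 (SE 0.20, 95% interval 0.10 to 0.93, adjusted p = 0.111), and 0.20 without control vehicle 1 and 3. Tcof1, treacle, which supports polymerase I transcription, had a fitted change of 0.56 (adjusted p = 0.123), and 0.13 without control vehicle 1 and 3.

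The nucleolar organisers and chaperones had the highest median of the 5 roles in the knockout under vehicle, 0.59. All 5 of 5 were above 0, and 3 of them were higher at an unadjusted p under 0.05 (19.8% of all genes). Without control vehicle 1 and 3, 4 of 5 were above 0 and the median was 0.19. There 0 had an unadjusted p under 0.05 (4.28% of all genes higher and 2.47% lower). Ncl, Ddx21, Mybbp1a and Nolc1 have transcripts longer than 2953 bases, and Npm1 has a shorter one. Over all 20 libraries, all genes above that length had a median of 0.24 under vehicle. The snoRNP core proteins, all with shorter transcripts, had a median of 0.21. RNA polymerase I and its factors, all longer except Polr1c, had a median of -0.06. Role apart from length was not tested. Ncl stood at 830.4, 2954, 636, 2353 and 3671 in control vehicle libraries 1 to 5 and at 3316, 5159, 6105, 4304 and 1877 in knockout vehicle libraries 1 to 5. Ncl under rapamycin stood at 2983, 2436, 3646, 5325 and 3201 in controls 1 to 5 and at 4077, 4169, 3058, 2244 and 4845 in knockouts 1 to 5. Ncl, nucleolin, an abundant RNA-binding protein of the nucleolus, was lowest in control vehicle 3 and 1, at 636 and 830 against 2353 to 3671 in the other controls. Knockout vehicle 5, at 1877, lay below those 3 controls. Ncl had the largest fitted change of the 35, 1.19 (SE 0.41, 95% interval 0.33 to 2.06, adjusted p = 0.103). With control vehicle 1 and 3 left out, its change was 0.39 (95% interval -0.29 to 1.07, adjusted p = 0.839).

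Npm1 stood at 2069, 2077, 2097, 2213 and 2419 in control vehicle libraries 1 to 5 and at 1996, 2309, 2614, 2364 and 2382 in knockout vehicle libraries 1 to 5. Npm1 under rapamycin stood at 2574, 2795, 2444, 2626 and 2516 in controls 1 to 5 and at 2598, 2356, 2596, 2718 and 2398 in knockouts 1 to 5. Npm1, nucleophosmin, a histone and ribosome chaperone of the granular nucleolus, had a coefficient of variation of 5.11 to 9.51% within the 4 groups. Its fitted change in the knockout under vehicle was 0.10 (95% interval -0.08 to 0.27). All 5 control rapamycin libraries lay above all 5 control vehicle libraries, as did 0.871% of all genes tested. The rapamycin change in controls was 0.25 (SE 0.08, 95% interval 0.08 to 0.43, adjusted p = 0.328), and 0.21 (95% interval 0.02 to 0.41, adjusted p = 0.9998) without control vehicle 1 and 3. In the knockouts the rapamycin change of Npm1 was 0.12 (SE 0.08, 95% interval -0.05 to 0.30, adjusted p = 0.976), with overlap. Averaged over genotype it was 0.19 (SE 0.06, 95% interval 0.07 to 0.31, adjusted p = 0.282). Within the 4 pools, that averaged difference was 0.24, 0.29, 0.097 and 0.087. Npm1 has processed pseudogenes in the mouse genome, between which RSEM may have divided its reads.

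Nolc1 stood at 308, 424, 197, 490.3 and 585 in control vehicle libraries 1 to 5 and at 567, 666, 634, 582 and 415 in knockout vehicle libraries 1 to 5. Nolc1 under rapamycin stood at 449, 492, 591, 761 and 573 in controls 1 to 5 and at 603, 660.0, 558, 522 and 744 in knockouts 1 to 5. Nolc1, the snoRNP chaperone Nopp140, was lowest in control vehicle 3 and 1, and the other controls overlapped the knockouts. Its fitted change was 0.59 (SE 0.22, 95% interval 0.12 to 1.06, adjusted p = 0.11) in the knockout under vehicle, and 0.19 without control vehicle 1 and 3. With rapamycin in controls it was 0.59 (SE 0.22, 95% interval 0.12 to 1.06, adjusted p = 0.328). Ddx21, an RNA helicase that links polymerase I transcription to processing, ran from 309 to 1248 in control vehicle and from 815 to 1591 in knockout vehicle libraries, with a fitted change of 0.88 (adjusted p = 0.0974), and 0.29 without control vehicle 1 and 3. Mybbp1a, a nucleolar Myb-binding protein, had a fitted change of 0.04 (95% interval -0.21 to 0.29), and -0.15 without control vehicle 1 and 3.

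**Figure D3:**
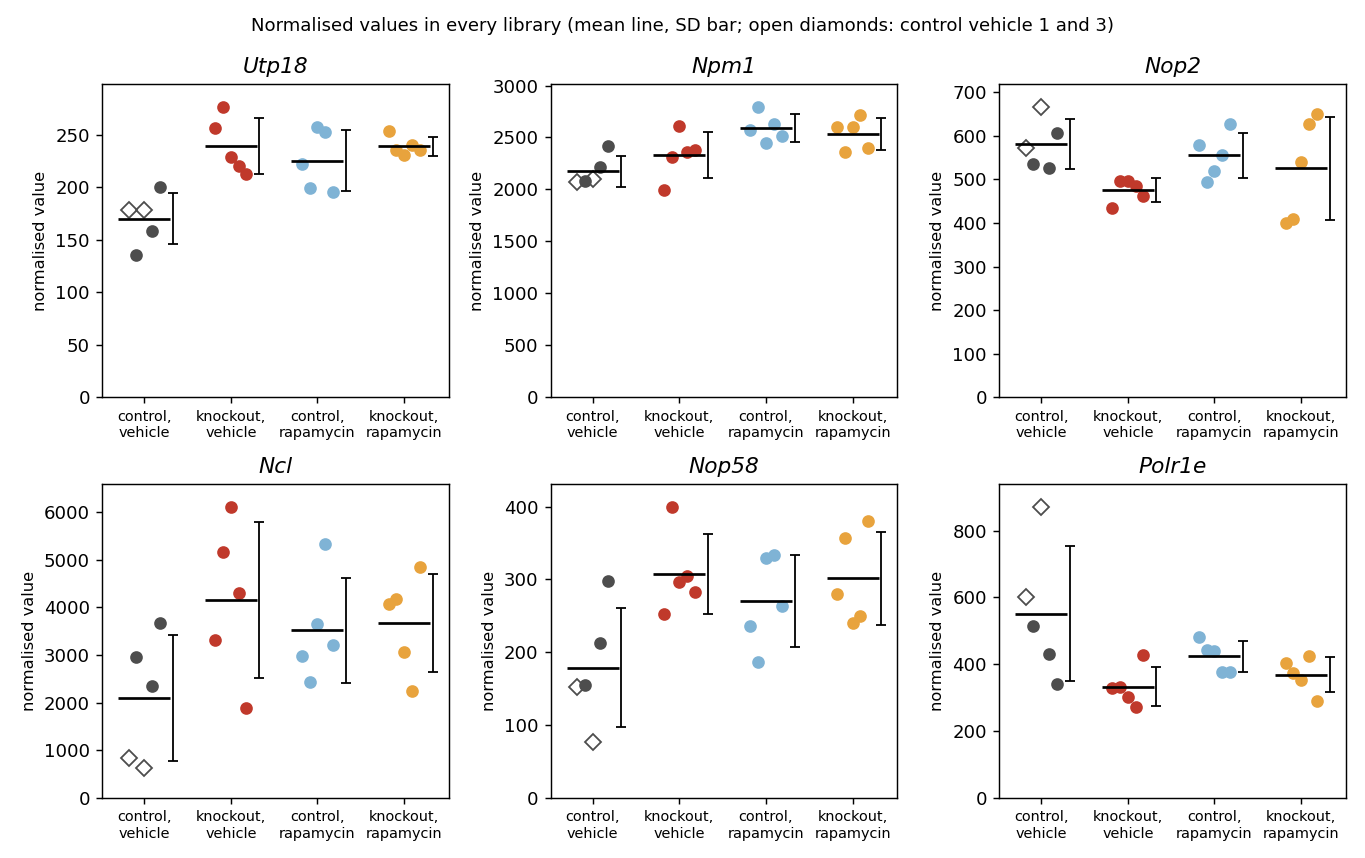
Normalised values of 6 genes in every library, with the group mean as a line and the SD as a bar (n = 5); open diamonds are control vehicle 1 and 3 and each axis starts at 0. Utp18 and Nop2 separate the vehicle genotypes, Npm1 separates control rapamycin from control vehicle, and in Ncl, Nop58 and Polr1e the diamonds are at or near the extreme of their group.

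The 7 core proteins of snoRNPs, which guide methylation and pseudouridylation of ribosomal RNA, had a median change of 0.21 in the knockout under vehicle. At an unadjusted p under 0.05, 2 were higher (19.8% of all genes) and 1 lower (12.1% of all genes). In the 18 libraries other than control vehicle 1 and 3, the counts were 1 and 0 (4.28% and 2.47% of all genes), with a median of 0.06. Fbl stood at 339, 290.3, 355, 389 and 354 in control vehicle libraries 1 to 5 and at 364, 421, 364, 385 and 458 in knockout vehicle libraries 1 to 5. Fbl under rapamycin stood at 396, 376, 419.8, 439 and 395 in controls 1 to 5 and at 386, 360.1, 308, 356 and 417 in knockouts 1 to 5. Fbl, fibrillarin, the methyltransferase of box C/D particles, had a fitted change of 0.21 in the knockout under vehicle (95% interval -0.01 to 0.42) and of -0.15 under rapamycin (95% interval -0.37 to 0.06). The difference between these, the genotype by drug interaction, was -0.36 (SE 0.15, 95% interval -0.67 to -0.05, adjusted p = 0.523). The groups overlapped, and knockout vehicle 5 was the highest library.

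Nop56 and Nop58 are paralogs that together form the scaffold of box C/D particles. Nop56 stood at 533, 549, 599, 453 and 479 in control vehicle libraries 1 to 5 and at 415, 473, 509, 491 and 481 in knockout vehicle libraries 1 to 5. Nop56 under rapamycin stood at 516, 595, 531, 605 and 486 in controls 1 to 5 and at 519, 494, 560.1, 603 and 501 in knockouts 1 to 5. Nop56 overlapped between all groups, and its fitted change was -0.14 in the knockout under vehicle (95% interval -0.35 to 0.07). Nop58 stood at 152, 155, 76.6, 213 and 298 in control vehicle libraries 1 to 5 and at 253, 399, 296, 304 and 282 in knockout vehicle libraries 1 to 5. Nop58 under rapamycin stood at 236, 187, 330.0, 334 and 263 in controls 1 to 5 and at 279.6, 357, 241, 249 and 381 in knockouts 1 to 5. Nop58 was lowest in control vehicle 3, 1 and 2, and control vehicle 5 lay within the knockout range. The knockout change of Nop58 under vehicle was 0.89 (SE 0.26, 95% interval 0.35 to 1.44, adjusted p = 0.0892), and 0.50 (95% interval 0.03 to 0.97, adjusted p = 0.714) without control vehicle 1 and 3. The rapamycin change of Nop58 in controls was 0.69 (SE 0.26, 95% interval 0.15 to 1.24, adjusted p = 0.328). Within the 4 pools its genotype difference under vehicle was 0.49, 1.36, 1.90 and 0.031. In pool 3, at 1.90, control vehicle 3 was the only control.

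Rrp9 stood at 649.6, 500.2, 768, 449 and 419 in control vehicle libraries 1 to 5 and at 416, 378, 324, 399 and 467 in knockout vehicle libraries 1 to 5. Rrp9 under rapamycin stood at 523, 495, 419.8, 464 and 427 in controls 1 to 5 and at 373, 446, 428, 393 and 439 in knockouts 1 to 5. Rrp9, the protein specific to the U3 snoRNP, was highest in control vehicle 3 and 1 and overlapped between genotypes. Its fitted change was -0.46 (SE 0.14, 95% interval -0.76 to -0.16, adjusted p = 0.0956) in the knockout under vehicle, and -0.21 without control vehicle 1 and 3. Under rapamycin it was -0.16 (SE 0.14, 95% interval -0.46 to 0.14, adjusted p = 0.9996). Dkc1 stood at 127, 212, 118, 301 and 299 in control vehicle libraries 1 to 5 and at 296, 442, 368, 413 and 204 in knockout vehicle libraries 1 to 5. Dkc1 under rapamycin stood at 236, 257, 311, 415 and 297 in controls 1 to 5 and at 298, 339, 208, 213 and 352 in knockouts 1 to 5. Dkc1, dyskerin, the pseudouridine synthase of box H/ACA particles, was lowest in control vehicle 3 and 1. Its change was 0.76 (SE 0.27, 95% interval 0.20 to 1.33, adjusted p = 0.104), and 0.31 without control vehicle 1 and 3. Its interaction with the drug was -0.87 (SE 0.38, 95% interval -1.67 to -0.08, adjusted p = 0.523), and -0.43 without them. The other box H/ACA proteins had fitted changes of 0.45 (Gar1, 95% interval -0.02 to 0.92) and -0.24 (Nhp2, 95% interval -0.68 to 0.21), and without control vehicle 1 and 3 of 0.05 and 0.06.

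The small subunit processome and its maturation factors had a median of 0.17 in the knockout under vehicle. At an unadjusted p under 0.05, 3 of 9 were higher (19.8% of all genes) and 2 lower (12.1% of all genes). Without control vehicle 1 and 3 the counts were 1 and 0 (4.28% and 2.47% of all genes), with a median of 0.06. The 9 included the gene with the smallest p among the 35, Utp18, a WD-repeat protein of the U3-associated subcomplex. Utp18 stood at 179, 135, 179, 158 and 200.3 in control vehicle libraries 1 to 5 and at 256, 276, 229, 220.4 and 213 in knockout vehicle libraries 1 to 5. Utp18 under rapamycin stood at 222, 199, 257, 252 and 196 in controls 1 to 5 and at 253, 235, 230.2, 241 and 235 in knockouts 1 to 5. All 5 knockout vehicle libraries lay above all 5 control vehicle libraries, as did 1.45% of all genes tested, and control vehicle 2 was the lowest of the 20. Mean values were 170.2 ± 24.5 in control vehicle and 239 ± 26.6 in knockout vehicle (SD, n = 5). The fitted change was 0.49 (SE 0.12, 95% interval 0.24 to 0.74, adjusted p = 0.0718). With control vehicle 1 and 3 left out, its change was 0.55 (95% interval 0.26 to 0.84, adjusted p = 0.363).

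The rapamycin groups held Utp18 near the knockout vehicle level, at 225 ± 28.8 in controls and 239 ± 8.88 in knockouts (SD, n = 5). The rapamycin change was 0.41 (SE 0.12, 95% interval 0.16 to 0.66, adjusted p = 0.328) in controls and 0.01 in knockouts (95% interval -0.24 to 0.26), and the interaction was -0.40 (SE 0.17, 95% interval -0.75 to -0.05, adjusted p = 0.523). Within the 4 pools the genotype difference under vehicle was 0.61, 1.02, 0.30 and 0.14, above 0 in each. Utp18 passed the adjusted threshold under vehicle only without control vehicle 5 (adjusted p = 0.0274) or knockout vehicle 5 (adjusted p = 0.036), in all the alternatives run.

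Utp20 stood at 189.7, 335, 128, 289 and 319 in control vehicle libraries 1 to 5 and at 437, 528, 439, 421 and 232 in knockout vehicle libraries 1 to 5. Utp20 under rapamycin stood at 288, 265, 348, 427 and 425 in controls 1 to 5 and at 344, 406, 318, 237 and 425 in knockouts 1 to 5. Utp20, a very large scaffold protein of early pre-ribosomes, was lowest in control vehicle 3 and 1, and knockout vehicle 5 lay below 3 of the controls. Its change was 0.74 (SE 0.26, 95% interval 0.20 to 1.28, adjusted p = 0.103), and 0.34 without control vehicle 1 and 3. Imp3 stood at 1560.3, 1101, 1633, 1189 and 1001 in control vehicle libraries 1 to 5 and at 924, 738, 726, 923 and 1280.3 in knockout vehicle libraries 1 to 5. Imp3 under rapamycin stood at 1065, 1459, 1256, 900.3 and 1238 in controls 1 to 5 and at 1096, 976, 1227, 1268 and 885 in knockouts 1 to 5. Imp3, which with Imp4 joins U3 to the precursor RNA, was highest in control vehicle 3 and 1. Its knockout change under vehicle was -0.50 (SE 0.17, 95% interval -0.86 to -0.14, adjusted p = 0.102), and -0.28 without control vehicle 1 and 3. Its rapamycin change in knockouts was 0.27 (SE 0.17, 95% interval -0.09 to 0.63, adjusted p = 0.962). The fitted change of Imp4 was 0.11 (95% interval -0.11 to 0.32), and its sign turned under quantile normalisation.

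Noc4l stood at 279, 324, 457, 283 and 364 in control vehicle libraries 1 to 5 and at 283, 278, 280.3, 319.8 and 246 in knockout vehicle libraries 1 to 5. Noc4l under rapamycin stood at 325, 274, 299.7, 299.7 and 272 in controls 1 to 5 and at 266, 259.7, 285, 271 and 266 in knockouts 1 to 5. Noc4l, the partner of Nop14 in small subunit assembly and export, was highest in control vehicle 3 and overlapped between groups. Its fitted change was -0.26 (SE 0.12, 95% interval -0.51 to -0.01, adjusted p = 0.149). That of Nop14 was 0.57 (SE 0.27, 95% interval 0.01 to 1.14, adjusted p = 0.154), and 0.01 without control vehicle 1 and 3, and its sign turned with the length score as a covariate. Wdr43 and Wdr75, members of the subcomplex needed for polymerase I transcription, had fitted changes of 0.17 and 0.17 (95% intervals -0.09 to 0.43 and -0.05 to 0.39), and without control vehicle 1 and 3 of 0.01 and 0.18. Rrp12, a late maturation and export factor, had a fitted change of 0.17 (95% interval -0.21 to 0.54), and 0.06 without control vehicle 1 and 3.

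Large subunit assembly factors had a median change of -0.15 in the knockout under vehicle. At an unadjusted p under 0.05, 1 of 7 was higher (19.8% of all genes) and 1 of 7 lower (12.1% of all genes), near those shares. In the 18 libraries other than control vehicle 1 and 3, the counts were 0 and 0 (4.28% and 2.47% of all genes), with a median of 0.04. Nop2 stood at 571, 536, 666, 526 and 605 in control vehicle libraries 1 to 5 and at 434, 497, 497, 485 and 462 in knockout vehicle libraries 1 to 5. Nop2 under rapamycin stood at 579, 493, 519, 556 and 626 in controls 1 to 5 and at 399, 409, 539.5, 627 and 649 in knockouts 1 to 5. Nop2, a methyltransferase of the large subunit RNA, was lower in all 5 knockout vehicle libraries than in all 5 control vehicle libraries, as were 0.871% of all genes. Its fitted change was -0.29 (SE 0.13, 95% interval -0.56 to -0.02, adjusted p = 0.141), and -0.22 (95% interval -0.53 to 0.08, adjusted p = 0.803) without control vehicle 1 and 3. Under rapamycin the knockout values spread from 399 to 649 and overlapped the controls, and the change there was -0.10 (95% interval -0.37 to 0.16).

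Bop1, Pes1 and Wdr12 form the PeBoW complex, which is needed for the maturation of large subunit RNA. Pes1 stood at 821, 861, 988, 817 and 891 in control vehicle libraries 1 to 5 and at 781, 835, 821, 778 and 794 in knockout vehicle libraries 1 to 5. Pes1 under rapamycin stood at 809, 760.3, 820.4, 802 and 795 in controls 1 to 5 and at 607, 775, 837, 753 and 864 in knockouts 1 to 5. Pes1 overlapped between groups and knockout rapamycin 1 was the lowest library. Bop1 stood at 944, 681, 895, 665 and 630.2 in control vehicle libraries 1 to 5 and at 677, 624, 646, 679.9 and 768 in knockout vehicle libraries 1 to 5. Bop1 under rapamycin stood at 645, 824, 697, 612 and 714 in controls 1 to 5 and at 636, 651, 774, 764 and 652 in knockouts 1 to 5. Bop1 was highest in control vehicle 1 and 3 and overlapped between groups. The changes under vehicle were -0.12 for Pes1 (95% interval -0.32 to 0.07) and -0.15 for Bop1 (95% interval -0.40 to 0.10), and 0.0023 for Wdr12 (95% interval -0.25 to 0.25). Without control vehicle 1 and 3 they were -0.09, 0.04 and 0.10.

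Nop16 stood at 429, 296, 429, 374 and 276 in control vehicle libraries 1 to 5 and at 319, 326, 239, 346 and 343 in knockout vehicle libraries 1 to 5. Nop16 under rapamycin stood at 259.8, 354, 412, 329.9 and 356 in controls 1 to 5 and at 293, 326, 280.1, 297 and 311 in knockouts 1 to 5. Nop16, an early large subunit factor, was highest in control vehicle 3 and 1 and lowest in knockout vehicle 3. Its fitted change was -0.19 under vehicle (95% interval -0.49 to 0.12), and -0.0049 without control vehicle 1 and 3. Under rapamycin it was -0.17 (SE 0.15, 95% interval -0.47 to 0.14, adjusted p = 0.9996). Noc3l, an assembly and export factor, ran from 71.4 to 144 in control vehicle and from 93.4 to 193 in knockout vehicle libraries, with a change of 0.67 (SE 0.22, 95% interval 0.21 to 1.13, adjusted p = 0.0984), and 0.40 without control vehicle 1 and 3. Nip7, a factor of large subunit maturation, had a fitted change of -0.23 (95% interval -0.64 to 0.18), and 0.07 without control vehicle 1 and 3.

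Promoter windows from RefSeq (build GRCm38.p6, from 250 bases before to 50 after the annotated start) were found for 30 of the 35 genes. They were searched for CACGTG, the E-box that Myc and other basic helix-loop-helix factors can bind, which reads the same on both strands. The motif was in 8 of the 30 (26.7%): Imp4, Mybbp1a, Nop2, Pes1, Rrn3, Utp18, Utp20 and Wdr43. It was in 11.6% of the 10663 genes tested that have a window and in 8.09% of all 27025 genes with one. Of the 8, 5 had a fitted change above 0 in the knockout under vehicle, beside 21 of the 35 and 7654 of all 13548 genes tested. Those 5 were at 0.74 for Utp20, 0.49 for Utp18, 0.17 for Wdr43, 0.11 for Imp4 and 0.04 for Mybbp1a. The other 3 were at -0.29 for Nop2, -0.24 for Rrn3 and -0.12 for Pes1, and 0 of the 8 passed the adjusted test. Without control vehicle 1 and 3, the sign for Mybbp1a turned. The bases before the start are given, with the motif in capitals, for Utp18 and Nop2, whose vehicle groups did not overlap, and for Rrn3, with 2 copies. The motif begins 20 bases before the start in Utp18 (chr11:93885767-93886016, minus strand), 60 before in Nop2 (chr6:125131633-125131882, plus strand), and 215 and 48 before in Rrn3 (chr16:13780449-13780698, plus strand). A match is a description of the letters and not a bound site.
Utp18: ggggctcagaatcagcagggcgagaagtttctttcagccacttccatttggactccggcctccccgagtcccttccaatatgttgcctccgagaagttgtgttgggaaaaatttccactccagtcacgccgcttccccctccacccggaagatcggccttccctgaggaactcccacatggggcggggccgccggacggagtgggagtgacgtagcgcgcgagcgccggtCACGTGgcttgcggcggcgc
Nop2: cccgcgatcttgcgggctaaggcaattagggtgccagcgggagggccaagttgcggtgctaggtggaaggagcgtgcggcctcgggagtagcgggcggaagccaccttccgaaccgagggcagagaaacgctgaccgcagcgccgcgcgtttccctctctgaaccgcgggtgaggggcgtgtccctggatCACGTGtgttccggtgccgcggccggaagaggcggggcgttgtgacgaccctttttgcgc
Rrn3: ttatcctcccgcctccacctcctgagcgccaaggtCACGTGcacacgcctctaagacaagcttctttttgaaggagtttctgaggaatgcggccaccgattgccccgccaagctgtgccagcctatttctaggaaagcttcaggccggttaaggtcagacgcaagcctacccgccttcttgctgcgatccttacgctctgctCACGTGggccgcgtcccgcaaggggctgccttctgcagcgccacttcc

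Counts above 0 were also taken by transcript length. By the annotated length of the principal transcript, 13 of the 17 longer genes and 8 of the 18 shorter ones were above 0 in the knockout under vehicle, with medians of 0.17 and -0.13. Over all genes tested that have a length, split at the same 2953 bases, the medians were 0.24 and -0.14, with 73.9% and 35.6% above 0. With control vehicle 1 and 3 left out, the medians of the 35 were 0.10 and 0.03. The annotated lengths include long untranslated ends (8202 bases for Ncl), and by coding length, a split chosen after these values were seen and known for 30 genes, 10 of 15 longer and 8 of 15 shorter genes were above 0. With the library's length score as a covariate in limma, 2 genes were higher (6.31% of all genes) and 2 lower (3.32%) at an unadjusted p under 0.05 under vehicle, and the signs of 9 of the 35 turned. The Nop58 change was then 0.40 (adjusted p = 0.537) and the Utp18 change 0.46 (adjusted p = 0.258). Whether RNA length, handling or the mouse set the values of control vehicle 1 and 3 was not tested.

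**Figure D4:**
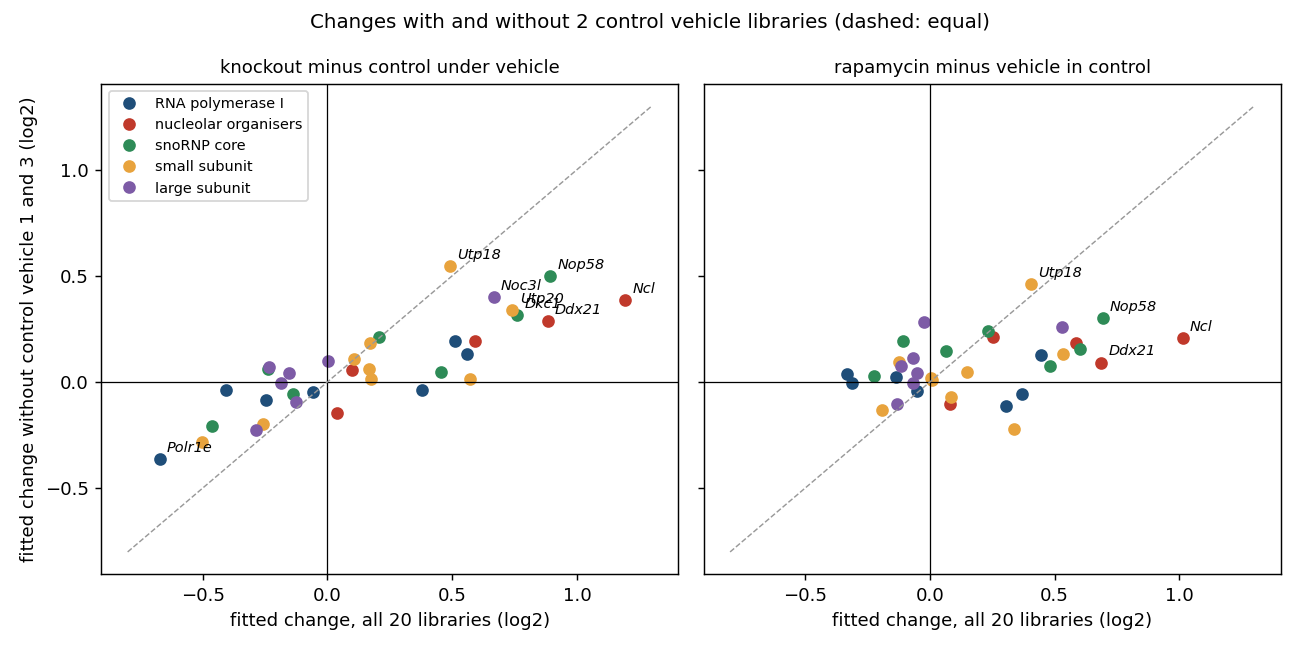
Each point is 1 of the 35 genes, coloured by role, with its fitted log2 change over all 20 libraries on the horizontal axis and without control vehicle 1 and 3 on the vertical axis; the dashed line marks equal values. Most points lie nearer to 0 on the vertical axis, while Utp18 lies above the line in both panels (left, knockout minus control under vehicle; right, rapamycin minus vehicle in controls).

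The interaction, which asks whether the genotype difference changed with rapamycin, passed the adjusted threshold for 0 of the 35 and for 0% of all genes tested. At an unadjusted p under 0.05, 0 were above 0 (2.22% of all genes) and 5 were below 0 (6.07% of all genes): Fbl, Utp18, Dkc1, Noc3l and Utp20. Their values were Fbl (-0.36), Utp18 (-0.40), Noc3l (-0.70), Utp20 (-0.76) and Dkc1 (-0.87), and without control vehicle 1 and 3 -0.37 (Fbl), -0.45 (Utp18), -0.43 (Noc3l), -0.36 (Utp20) and -0.43 (Dkc1). Without those libraries 0 were above 0 (1.03% of all genes) and 2 below (2.53%) at an unadjusted p under 0.05, Fbl and Utp18, and the sign of 8 of the 35 turned. With quantile normalisation 0 were above 0 (4.66% of all genes) and 1 below (3.02%). Averaged over drug, the genotype difference passed for 0 of the 35 (0.443% of all genes) and averaged over genotype the rapamycin difference passed for 0 (0.125% of all genes). Their unadjusted counts were 5 higher and 5 lower (10.4% and 8.73% of all genes), and 3 higher and 0 lower (4.6% and 4.64% of all genes). The 10 genes of the genotype difference were Ncl (0.63), Nop58 (0.53), Ddx21 (0.50), Nolc1 (0.36), Utp18 (0.29), Noc4l (-0.19), Nop2 (-0.20), Imp3 (-0.31), Rrp9 (-0.31) and Polr1e (-0.44), and without control vehicle 1 and 3 they were at 0.23 (Ncl), 0.33 (Nop58), 0.21 (Ddx21), 0.16 (Nolc1), 0.32 (Utp18), -0.16 (Noc4l), -0.16 (Nop2), -0.20 (Imp3), -0.18 (Rrp9) and -0.28 (Polr1e). The 3 of the rapamycin difference were Nolc1 (0.35), Utp18 (0.21) and Npm1 (0.19), and without those libraries at 0.15 (Nolc1), 0.23 (Utp18) and 0.17 (Npm1). Without them the counts were 2 higher (4.27% of all genes) and 3 lower (3.2%) for genotype, and 3 higher (3.41%) and 0 lower (3.58%) for rapamycin, where the sign of 15 of the 35 turned.

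Under vehicle 0 of 38 other small subunit genes, 0 of 37 other large subunit genes, 0 of 8 other RNA polymerase I genes, 0 of 9 other snoRNP genes and 0 of 14 exosome genes passed the adjusted threshold in the knockout. At an unadjusted p under 0.05, 11 of the 38 were higher (19.8% of all genes) and 7 lower (12.1% of all genes), with a median of 0.07. Of the 37, 6 were higher and 6 lower, beside the same shares, with a median of 0.06. These lists are given over all 20 libraries only. The cytosolic ribosomal protein genes, whose short mRNAs encode the ribosome's own proteins, had a median of -0.51 under vehicle. Of the 79, 50 were lower at an unadjusted p under 0.05 (12.1% of all genes) and 0 were called by the adjusted test. All genes of at most 2953 bases had a median of -0.14, with 35.6% above 0. That cut was set by the lengths of the ribosome biogenesis genes, so this class is not matched in length to the ribosomal protein genes. Whether other genes with mRNAs as short fell as far was not tested. In control vehicle 1 and 3 short transcripts were high relative to long ones, and no value without those libraries is given for the 79 genes. Under rapamycin the median genotype difference of these 79 genes was -0.04. In the knockout, rapamycin gave them a median change of 0.22, with 78 of 79 above 0 and 1 at an unadjusted p under 0.05. Of all 13548 genes tested, 6307 were above 0 there. In the controls the sign was the other way, with a median rapamycin change of -0.24. There 2 of 79 were above 0, beside 7933 of all genes, and that comparison holds control vehicle 1 and 3.

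Of 23 growth regulators of the pathway tested, 0 passed the adjusted threshold in any of the 7 comparisons. At an unadjusted p under 0.05, 6 were higher (19.8% of all genes) and 3 lower (12.1% of all genes) in the knockout under vehicle. These genes are given over all 20 libraries only, with no value without control vehicle 1 and 3. Myc, at 166 ± 72.4 in control vehicle, 127 ± 17.4 in knockout vehicle, 212 ± 75.9 in control rapamycin and 193 ± 81.3 in knockout rapamycin libraries (SD, n = 5), had a fitted change of -0.27 in the knockout under vehicle (SE 0.32, adjusted p = 0.568). Averaged over genotype, its rapamycin change was 0.46 (SE 0.23, adjusted p = 0.552). Mtor, the kinase that rapamycin inhibits, had a fitted change of 0.53 in the knockout under vehicle (SE 0.25, adjusted p = 0.151). Eif4ebp1, the mTOR substrate 4E-BP1, chosen because it had the smallest p of the 23 under vehicle, was at 2746 ± 737 in control and 1710.0 ± 320.4 in knockout vehicle libraries (SD, n = 5), a fitted change of -0.66 (SE 0.18, adjusted p = 0.0847).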

How the data were processed

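RNA of 20 ventricle libraries was sequenced after poly(A) selection. The deposited signal values are gene-level RSEM estimates that the authors scaled to a common upper quartile near 1000, as the values show, with reads placed on build mm9 and Picard 1.64 and SAMtools used, per the submitters' processing notes. The aligner was not given in the sources used here, nor were other versions. Implied depth had a median of 15.2 M reads. Only 88.7 to 90.4% of low values were whole reads within 0.05, so read counts were not recovered, and low genes are less precise.

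From these values log2(value + 1) was computed, genes with at least 10 in at least 5 libraries were kept, and limma 3.58.1 (R 4.3.3) fitted the 4 group means over all 20 libraries with a mean-dependent prior, Benjamini-Hochberg adjustment and a threshold of 0.05. The script was tested on simulated data with independent noise in each gene and library. Such data hold no difference shared by many genes of a library, so the test does not cover that of control vehicle 1 and 3. Lengths came from GENCODE M21 principal transcripts and promoters from RefSeq GRCm38.p6, matched by gene identifier, not by coordinates. Alternatives were another pseudocount, filter, scaling, pool or replicate term, a length score, robust weights and libraries left out. The members and lists were chosen with earlier results of these data known. Every member is given with its fitted change, and library values are given for representatives of each role and for the 3 genes of smallest p in each of 7 comparisons.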

Additional observations from a re-analysis of the deposited data

Results flagged for a closer look

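Within each group of 5 libraries, 21 genes and the median deviation over the 35 genes were checked, 88 checks in all. In 3 of them, all on single genes, 1 library lay far from the other 4, where chance flags about 1 in 20. Nop16 stood at 239 in knockout vehicle 3 against 319 to 346 in the others of its group. Polr1b stood at 508 in control rapamycin 1 against 335 to 382. Rrn3 stood at 1606 in control rapamycin 4 against 1953 to 2054. The source of these values was not tested.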

How the results depend on the processing

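In the knockout under vehicle, leaving out 1 library at a time gave 0 to 15 ribosome biogenesis genes called, 15 without control vehicle 5 and 12 without knockout vehicle 5. For the genotype difference averaged over drug it gave 0 to 1. With the length score as a covariate 1 gene, Imp3, was called for rapamycin averaged over genotype (0.20, adjusted p = 0.0406 in limma). The other alternatives gave 0 in each comparison. Quantile normalisation moved the median rapamycin change in controls to 0.00036 and the median interaction to -0.028, and it shifted the median of all genes by -0.11 in the knockout under vehicle and by 0.12 in the interaction. The fit of the 4 group means over all 20 libraries called 0 of the 35, so there was no called direction to reverse. Signs of uncalled changes did turn, those of 15 of the 35 for rapamycin averaged over genotype with the length score as a covariate. Over all genes, the 33 called in the knockout under vehicle became 56 with a pool term, 3 with only the groups compared, 12 with robust weights, 6 with the length score, 4 without control vehicle 1 and 3, and 8 to 3089 with 1 library left out. The 60 called averaged over drug became 37 without a filter, 131 with robust weights, 11 without control vehicle 1 and 3, and 21 to 150 with 1 library left out. The 17 called for rapamycin averaged over genotype became 0 with a pool term, 35 with robust weights, 324 with the length score and 4 without control vehicle 1 and 3. The 3 called in the knockout under rapamycin became 14 with robust weights, and the 1 called for rapamycin in the knockout ranged from 0 to 230. The causes were not tested.

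Libraries with the same replicate number did not deviate together (correlations from -0.51 to 0.43, 10 of 30 over 0.1). The replicate block gave 0 of the 35 called in each comparison, and over all genes 49 in the knockout under vehicle and 5 for rapamycin averaged over genotype.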
